A study of Chlamydomonas reinhardtii with 6 samples.

Results

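In cultures of the green alga Chlamydomonas reinhardtii given excess manganese, 7 genes of triacylglycerol synthesis, lipid droplets and betaine lipid synthesis were followed, out of 17741 gene models measured. They were taken from a list of 8 gene identifiers, each paired in that list with a gene name. 7 identifiers matched a row of the expression table, and DGTT2 was not analysed here. The table itself holds identifiers only, so the names rest on the list and no measurement checks them. The excess-manganese cultures were strain CC-4532 in acetate medium with 1000 µM manganese (3 flasks), and the controls were the same strain and medium with 6 µM manganese (3 flasks). All 6 flasks came from 1 starter culture, grew under continuous light and were harvested in mid-logarithmic phase, so the p-values measure the spread between sister cultures of a single strain. Poly-A RNA was sequenced, and levels are given as FPKM, fragments scaled to the length of the transcript and the size of the library, so that genes can be set side by side.

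Triacylglycerol is the storage fat that algae pack into lipid droplets, and its final step joins the last acyl chain to diacylglycerol. Acyl-CoA:diacylglycerol acyltransferases of type 1 (DGAT1) and type 2 (the DGTT genes) take that chain from acyl-CoA. The phospholipid:diacylglycerol acyltransferase PDAT1 takes it from a membrane lipid instead. PGD1 is a lipase that releases acyl chains from newly made plastid galactolipid for use in triacylglycerol, and MLDP1 encodes the major protein coating the droplets. BTA1 builds the betaine lipid DGTS, again from diacylglycerol, and in this alga DGTS stands in for phosphatidylcholine as a membrane lipid. Nitrogen starvation is the best known trigger of triacylglycerol accumulation in Chlamydomonas.

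No gene of the group changed at the adjusted threshold between 1000 µM and 6 µM manganese. Of the 6 genes that averaged 1 FPKM or more, 0 passed an adjusted p of 0.05 in limma's moderated test, against 0% of all 12543 genes tested. At an unadjusted p under 0.05 there was 1 gene, DGAT1, lower at 1000 µM, where 1.75% of all tested genes were called lower and 2.82% were called in either direction. The differences of log2(FPKM + 1), taken as 1000 minus 6 µM, ran from -0.33 for MLDP1 to 0.07 for DGTT3. Their median was -0.10, with 5 of 6 below 0, beside a median of 0.01 and 46.3% below 0 over all tested genes. Without 1000 µM replicate 3 the median was -0.02 with 4 of 6 below 0. With library quality weights, which at 1000 µM leaned on replicate 1 (weight 6.58), it was 0.01 with 2 of 6 below 0. Other settings moved it away from 0. With every library scaled to the same FPKM total it was -0.18 with 6 of 6 below 0. That scaling also moved the median over all tested genes, to -0.06. Without 1000 µM replicate 1 the median of the 6 genes was -0.18 with 4 of 6 below 0. Expressed in FPKM, the 95% intervals of the 6 genes reached from 0.504 times the 6 µM level (the lower bound for MLDP1) to 1.31 times (the upper bound for PGD1). The bound for MLDP1 rests on 1 library: without 1000 µM replicate 3 it was 0.798 times, and the lowest of the 6 was then 0.657 times, for DGAT1. The upper bound for PGD1 was then 1.39 times. Other omissions widened the range. The lower bound for MLDP1 was 0.424 times without 1000 µM replicate 1, and the upper bound for PGD1 was 1.46 times without 6 µM replicate 2.

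Across the libraries the summed FPKM was between 629620 and 767912, and the sequencing depth behind these values is unknown. The libraries 1000 µM replicate 3 and 6 µM replicate 1 stood apart from the other 4 on the first principal component, which held 57.8% of the variance over the tested genes. Their deviations from their group means correlated at 0.752 across genes, a description over genes that are not independent. These libraries come from different manganese levels, so each difference is also given without both of them.

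The levels of the genes formed steps. BTA1 was the most abundant, with a mean of 35.1 FPKM over the 6 libraries, above 90.7% of all gene models. PGD1, DGTT3 and MLDP1 followed with means of 21.9, 19.6 and 18.9 FPKM, and their ranges over the libraries overlapped. Within libraries, PGD1 exceeded DGTT3 in 5 of 6 and MLDP1 in 6 of 6, and DGTT3 exceeded MLDP1 in 2 of 6. PDAT1 averaged 4.56 FPKM and DGAT1 2.74 FPKM. Their ranges did not overlap, and PDAT1 exceeded DGAT1 in 6 of 6 libraries, with 3.57 FPKM as its lowest value against 3.43 FPKM as the highest of DGAT1. DGTT1 was the only one of the 7 under 1 FPKM, with a mean of 0.51 FPKM and a place above 23.0% of all gene models. This order is a description and was not tested.

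**Figure D1:**
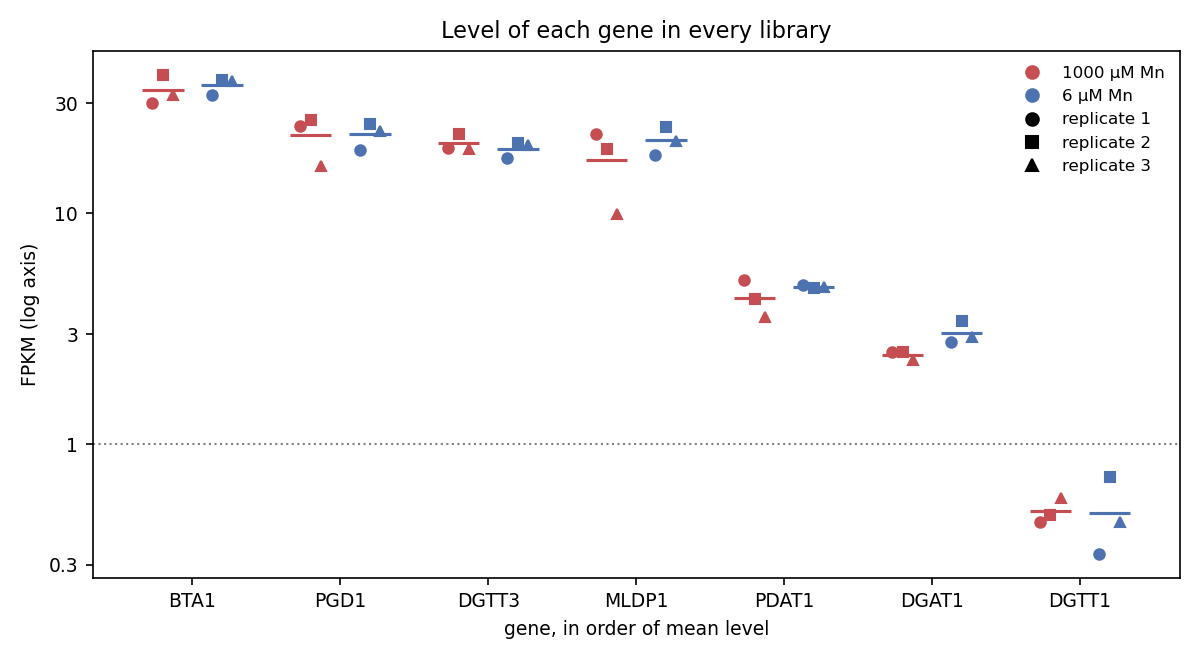
FPKM (log axis) of the 7 genes in each library, with 1000 µM manganese left of 6 µM manganese, markers for replicates and a bar at each group mean. Only DGTT1 lies under the dotted line at 1 FPKM, and only DGAT1 has all 1000 µM values below all 6 µM values.

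Among the acyl-CoA-dependent enzymes, DGAT1 (Cre01.g045903.v5.5, chromosome 1 from 6458437 to 6464582 in assembly v5.5) had 2.52, 2.50 and 2.31 FPKM in the 1000 µM cultures, against 2.76, 3.43 and 2.91 FPKM in the 6 µM cultures. All 3 libraries at 1000 µM lay below all 3 at 6 µM, a pattern shared by 3.70% of the tested genes. The means were 2.44 ± 0.116 and 3.03 ± 0.349 FPKM (SD, n = 3 each). The difference on the log2(FPKM + 1) scale was -0.23, with a 95% interval from -0.44 to -0.02 (limma adjusted p = 0.99997). In FPKM this interval corresponds to a level between 0.653 and 0.984 times that of the control. By p DGAT1 stood at rank 276 of 12543, and its difference did not pass the adjusted threshold. An exact two-sided permutation test over the 6 libraries gave p = 0.1, the smallest this design allows. Groups of 3 that do not overlap always give this p, so it restates the separation above. Whether DGAT1 changed at all is not settled by these values. In RNA from whole cultures, a smaller share of cells with this transcript and less of it in each cell cannot be told apart. Without 6 µM replicate 1 and 1000 µM replicate 3 the log2(FPKM + 1) difference was -0.25 (limma adjusted p = 0.925). With 1 library left out at a time the difference lay between -0.27 and -0.16. It missed an unadjusted p of 0.05 in 5 of these 6 omissions and passed it only without 6 µM replicate 1.

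DGTT3 (Cre06.g299050.v5.5, chromosome 6 from 7351329 to 7354799) was the most abundant of the acyltransferase genes measured. It had 19.2, 22.0 and 19.0 FPKM at 1000 µM, against 17.4, 20.2 and 19.8 FPKM at 6 µM, and the groups overlapped. The means were 20.1 ± 1.70 and 19.1 ± 1.49 FPKM (SD, n = 3 each), and the log2(FPKM + 1) difference was 0.07, with a 95% interval from -0.18 to 0.31 (limma adjusted p = 0.99997). With every library scaled to the same FPKM total the difference was -0.02, and without both libraries that stood apart it was 0.04. The interval bounds the FPKM level at 1000 µM between 0.876 and 1.25 times that at 6 µM. DGTT3 had the narrowest range of the 7 genes, its highest library being 1.27 times its lowest.

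DGTT1 (Cre12.g557750.v5.5, chromosome 12 from 7279129 to 7283104), which is known to be induced strongly by nitrogen starvation, was under 1 FPKM in 6 of 6 libraries. It had 0.462, 0.496 and 0.584 FPKM at 1000 µM, against 0.335, 0.723 and 0.460 FPKM at 6 µM. The 1000 µM values all fell inside the range of the 6 µM values. The means were 0.514 ± 0.063 and 0.506 ± 0.198 FPKM (SD, n = 3 each). DGTT1 averaged under 1 FPKM and was left out of the limma test, and an exact two-sided permutation test gave p = 0.8. Its log2(FPKM + 1) difference was 0.02, and -0.10 without both libraries that stood apart. The number of reads behind its values is unknown.

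DGTT3 made up most of the summed FPKM of DGAT1, DGTT1 and DGTT3 in every library. It held 86.6%, 88.0% and 86.8% of that sum at 1000 µM, against 84.9%, 82.9% and 85.5% at 6 µM. DGAT1 held 11.3%, 9.99% and 10.5% at 1000 µM, against 13.5%, 14.1% and 12.5% at 6 µM. DGTT1 held between 1.63% and 2.98%. The shares of DGTT3 and of DGAT1 did not overlap between the groups, which restates the DGAT1 and DGTT3 values above in another form. The FPKM of DGTT3 itself overlapped. Shares of a sum were not computed for other genes, so no background stands beside them. In FPKM, 3.70% of the tested genes were lower at 1000 µM without overlap, as DGAT1 was. The summed FPKM of these genes was 23.0 ± 1.74 at 1000 µM and 22.7 ± 1.95 at 6 µM (SD, n = 3 each).

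PDAT1 (Cre02.g106400.v5.5, chromosome 2 from 5259664 to 5266159), the acyl-CoA-independent route, had 5.13, 4.25 and 3.57 FPKM at 1000 µM, against 4.89, 4.75 and 4.78 FPKM at 6 µM. The 1000 µM libraries spread on both sides of the 6 µM libraries, which lay close together. Means were 4.32 ± 0.781 and 4.81 ± 0.0751 FPKM (SD, n = 3 each). The log2(FPKM + 1) difference was -0.14, with a 95% interval from -0.40 to 0.13 (limma adjusted p = 0.99997). Without both libraries that stood apart it was -0.02, and with library quality weights it was 0.04.

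MLDP1 (Cre09.g405500.v5.5, chromosome 9 from 6143460 to 6146395), the lipid droplet coat protein gene, varied most of the 6 tested genes. It had 22.1, 19.1 and 9.90 FPKM at 1000 µM, against 18.0, 23.7 and 20.6 FPKM at 6 µM. A single library, 1000 µM replicate 3, was low, and the other 2 at 1000 µM lay within the range of the 6 µM cultures. The means were 17.0 ± 6.36 and 20.7 ± 2.83 FPKM (SD, n = 3 each). The log2(FPKM + 1) difference was -0.33, with a 95% interval from -0.92 to 0.26 (limma adjusted p = 0.99997), and without 1000 µM replicate 3 it was -0.0044. Without both libraries that stood apart it was -0.10. Only 1.36% of the tested genes had a larger spread within groups. The low library was 0.99 below the mean of the other 5 on the log2(FPKM + 1) scale, a deviation that 0.136% of the tested genes reached or exceeded downward in that library.

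PGD1 (Cre03.g193500.v5.5, chromosome 3 from 6320421 to 6327099), the galactolipid lipase gene, had 24.0, 25.3 and 16.0 FPKM at 1000 µM, against 18.8, 24.5 and 22.8 FPKM at 6 µM. Its lowest values were in 1000 µM replicate 3 and 6 µM replicate 1, 1 in each group, and the groups overlapped. The means were 21.8 ± 5.02 and 22.0 ± 2.93 FPKM (SD, n = 3 each). The log2(FPKM + 1) difference was -0.03, with a 95% interval from -0.45 to 0.38 (limma adjusted p = 0.99997). Without 1000 µM replicate 3 it was 0.16, and without both libraries that stood apart it was 0.06 with an interval from -0.17 to 0.29.

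BTA1 (Cre07.g324200.v5.5, chromosome 7 from 1537651 to 1544496), the betaine lipid synthase gene, had 30.2, 39.9 and 32.7 FPKM at 1000 µM, against 32.5, 37.8 and 37.3 FPKM at 6 µM. Both the lowest and the highest value belonged to 1000 µM cultures. The means were 34.3 ± 5.06 and 35.9 ± 2.89 FPKM (SD, n = 3 each). The log2(FPKM + 1) difference was -0.07, with a 95% interval from -0.37 to 0.23 (limma adjusted p = 0.99997), and it was 0.01 without 1000 µM replicate 1. Without both libraries that stood apart it was -0.11, with every library scaled to the same FPKM total -0.16, and with library quality weights -0.22. In FPKM the interval runs from 0.769 to 1.17 times the control level.

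**Figure D2:**
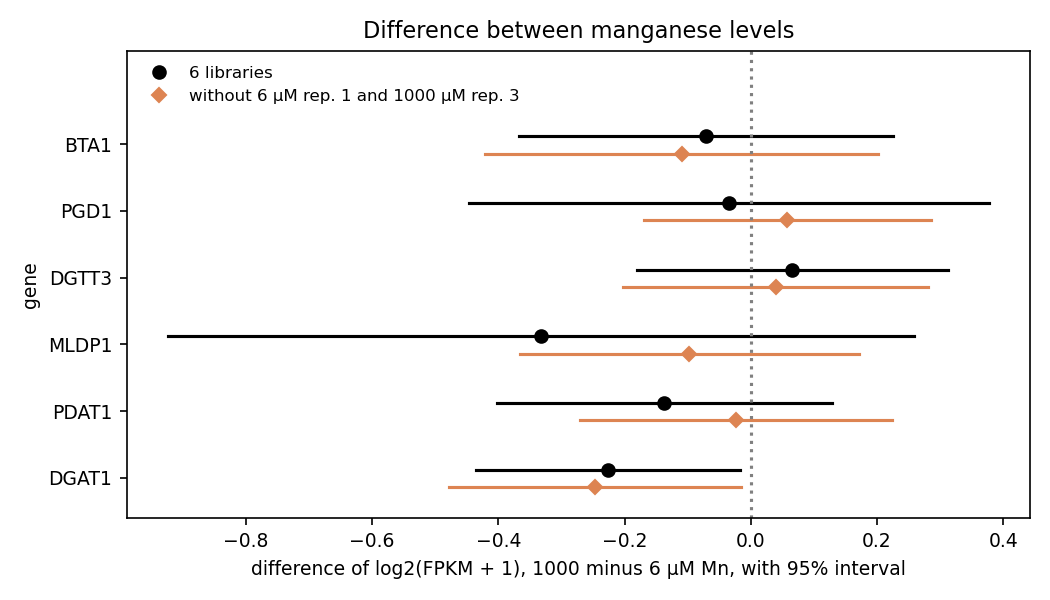
Difference of log2(FPKM + 1), 1000 minus 6 µM manganese, for the 6 tested genes with 95% intervals from limma, in 6 libraries (black circles) and without the 2 libraries that stood apart (orange diamonds). The DGAT1 interval, from -0.44 to -0.02, is the only one of the 6 that does not include 0, and that of MLDP1 is the widest.

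The genes also varied between libraries of the same manganese level. Library 1000 µM replicate 3 lay below the gene's mean for 6 of 6 tested genes and was the lowest library for 4 of them (DGAT1, PDAT1, MLDP1 and PGD1), where it was the lowest for 26.2% of all tested genes. The median deviation of the 6 genes in this library was -0.22 on the log2(FPKM + 1) scale, beside 0.01 over all tested genes. In 6 µM replicates 2 and 3, in contrast, 0 of 6 genes lay below their mean. The median deviation of the 6 genes was 0.14 and 0.07 there, beside -0.0027 and -0.0085 over all tested genes. Over the 6 libraries, MLDP1 correlated with PGD1 at a Pearson's r of 0.883 and with PDAT1 at 0.882. The correlation was 0.762 between BTA1 and DGTT3 and 0.04 between DGTT3 and DGAT1. Of the 15 pairs, 13 were positive, with a median r of 0.495. These are descriptions over 6 points that share library scaling. Without 1000 µM replicate 3 the median r was 0.245 and 5 of the 15 pairs were negative. The r of MLDP1 was then 0.611 with PGD1 and 0.327 with PDAT1, while that of PDAT1 was -0.866 with BTA1, -0.766 with DGTT3 and -0.41 with PGD1. Other pairs held or rose: PGD1 with DGTT3 went from 0.66 to 0.891, the highest of the 15, and BTA1 with DGTT3 was 0.754.

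**Figure D3:**
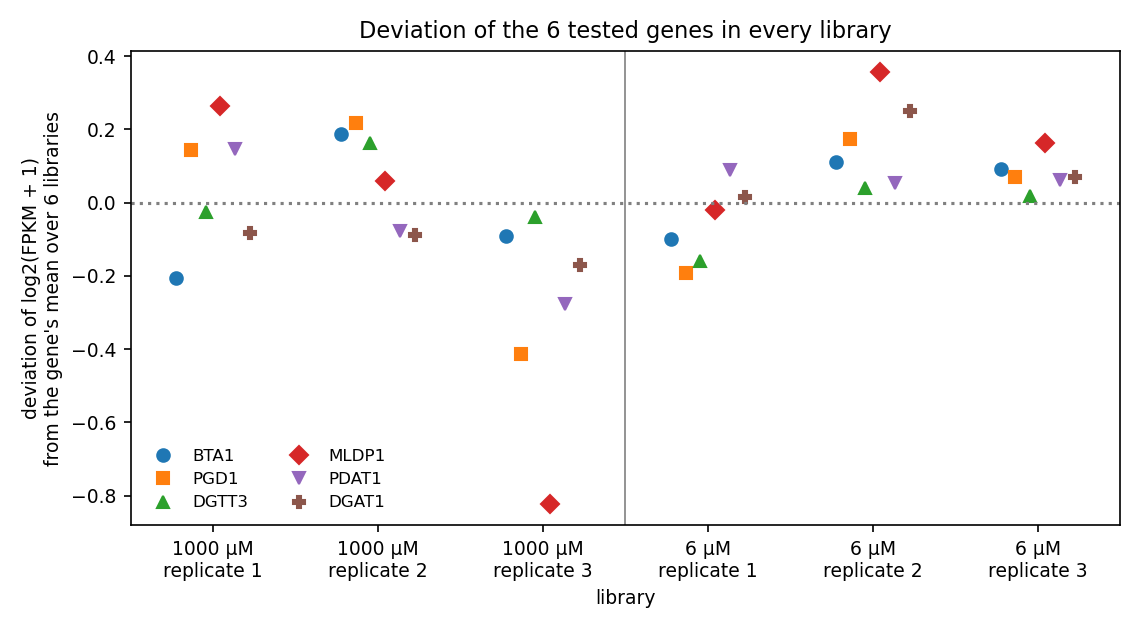
Deviation of log2(FPKM + 1) from each gene's mean over the 6 libraries, for the 6 tested genes in each library, with the 1000 µM libraries left of the 6 µM libraries. All 6 genes lie below 0 in 1000 µM replicate 3, MLDP1 farthest, and above 0 in 6 µM replicates 2 and 3.

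Ratios between genes within a library remove the scaling between libraries. DGTT3 exceeded DGAT1 by 7.63, 8.82 and 8.24 times at 1000 µM, against 6.30, 5.88 and 6.82 times at 6 µM. The ratio of BTA1 to DGTT3 was 1.57, 1.81 and 1.72 at 1000 µM, against 1.87, 1.87 and 1.88 at 6 µM. Both DGAT1 and BTA1 were thus lower relative to DGTT3 in every 1000 µM library than in any 6 µM library, which also held for 7.3% of the other tested genes. The ratio of MLDP1 to PGD1 was 0.923, 0.754 and 0.618 at 1000 µM, against 0.957, 0.965 and 0.903 at 6 µM, and overlapped. These ratios were chosen after the values were seen and carry no test.

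**Figure D4:**
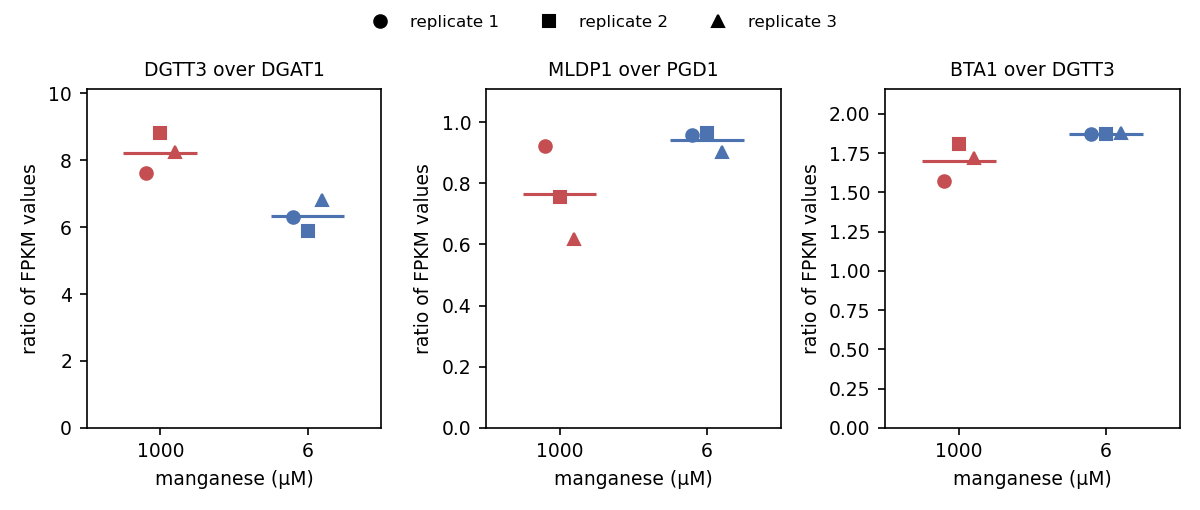
Ratios of FPKM values within each library for 3 pairs of genes, with 1000 µM manganese left of 6 µM manganese, markers for replicates and a bar at each group mean. The groups do not overlap for DGTT3 over DGAT1 (7.63 to 8.82 against 5.88 to 6.82) or BTA1 over DGTT3, and overlap for MLDP1 over PGD1.

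In the reference gene table the 7 genes lie on 7 different chromosomes, and none overlaps another annotated gene there. The tested gene whose pattern over the 6 libraries was most like that of DGAT1 was Cre17.g730650.v5.5, at a Pearson's r of 0.9943. For MLDP1 it was Cre07.g324500.v5.5 at 0.9995, and for PGD1 it was Cre07.g331250.v5.5 at 0.9983. For BTA1, DGTT3 and PDAT1 these were Cre17.g739950.v5.5 at 0.9946, Cre13.g564000.v5.5 at 0.9932 and Cre02.g091450.v5.5 at 0.9948. An r above 0.95 over the 6 libraries was reached by 336 genes for PGD1 (2.68% of the other tested genes) and 82 for MLDP1 (0.654%). It was reached by 44 for DGAT1 (0.351%), 37 for DGTT3 (0.295%), 21 for PDAT1 (0.167%) and 6 for BTA1 (0.0478%). Each gene named as most alike was picked for the highest r among all other tested genes over only 6 points. These likenesses are descriptions, and shared regulation was not tested.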

How the data were processed

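The authors deposited a single table with an FPKM value for each gene in each library. The submitters' processing notes name CASAVA, STAR and Cuffdiff 2.2.1. Settings, genome build, filters and strand handling: not given in the sources used here. Columns were matched to samples through manganese level and replicate number in the titles. FPKM values do not keep depth, so no counting interval or floor is given. Positions were taken by locus tag from RefSeq's gene table for assembly Chlamydomonas_reinhardtii_v5.5, which holds no gene symbols. Further lipid genes that had been listed by identifier are therefore not reported.

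Genes averaging 1 FPKM or more were tested two-sided on log2(FPKM + 1), a scale that understates changes of low genes, with limma 3.58.1 in R 4.3.3 (eBayes with a mean-variance trend). Benjamini-Hochberg adjustment ran over all 12543 of them at a threshold of 0.05. The test was checked on simulated data with independent noise for each gene and library. That check does not cover the variation shared between libraries that was seen here. Permutation tests of single genes were exact and two-sided. The genes named were the listed members and, for each tested member, the gene with the highest Pearson's r. Members, lists and alternatives were chosen with earlier results of these data known.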

Additional observations from a re-analysis of the deposited data

How the results depend on the processing

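The count of 0 members past the adjusted threshold held in 18 of 18 alternatives. These were pseudocounts of 0.1 and 5, no filter, a minimum mean of 5 FPKM, 3 other scalings, a replicate block, 3 other variance models, each library left out in turn, and the omission of 6 µM replicate 1 with 1000 µM replicate 3. In each alternative few or none of all tested genes passed, at most 26 of 12543, with library quality weights. A count of 0 among the members was therefore likely in every setting. The 1 gene at an unadjusted p under 0.05 became 0 with quantile normalization, with the replicate block and at a minimum mean of 5 FPKM, which removes DGAT1 by construction. With 1 library left out the count was 0 to 1, with the 1 seen only without 6 µM replicate 1. DGAT1 kept its direction in 17 of 17 alternatives, between -0.30 and -0.11, with an unadjusted p under 0.05 in 10 of them and a limma adjusted p of at least 0.404. With library quality weights, which gave 1000 µM replicates 1, 2 and 3 weights of 6.58, 0.884 and 0.267, the difference of log2(FPKM + 1) turned to 0.08 for PGD1, 0.02 for MLDP1 and 0.04 for PDAT1. Scaling to the same FPKM total turned DGTT3 to -0.02 and moved the median over all tested genes to -0.06. Omitting both libraries that stood apart turned PGD1 to 0.06. Leaving out 1 library at a time gave -0.18 to 0.01 for BTA1, -0.15 to 0.16 for PGD1, 0.0002 to 0.10 for DGTT3, -0.55 to -0.0044 for MLDP1, -0.25 to -0.03 for PDAT1 and -0.27 to -0.16 for DGAT1. BTA1 turned to 0.01 without 1000 µM replicate 1. PGD1 turned to 0.16 without 1000 µM replicate 3 and to 0.04 without 6 µM replicate 2. For these reversals the cause was not tested. Replicate numbers are not stated to pair the cultures. Across genes the deviations of number 1 correlated at -0.40, of number 2 at 0.51 and of number 3 at -0.50. Deviations within a group of 3 are tied to one another, and libraries with different numbers stood apart together. These correlations therefore cannot decide whether the numbers pair libraries. With the replicate block 0 genes passed the adjusted threshold. The unknown depth limits statements on DGTT1.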
